A study of Mus musculus with 6 samples.

Results

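The genes described here are 10 regulators of the primitive streak and mesendoderm: the T-box factors *T*, *Eomes* and *Tbx6*, the homeobox factors *Mixl1*, *Gsc* and *Lhx1*, the basic helix-loop-helix factors *Mesp1*, *Mesp2* and *Msgn1*, and the secreted antagonist *Cer1*. They were chosen by name, and each matched 1 of the 20633 RefSeq transcript entries of the deposited table, so that all 10 were found and 9 had a level above 0. In the embryo the primitive streak is where epiblast cells leave the epithelium to form mesoderm and endoderm. Nodal, Wnt and BMP signals induce its regulators there, and in embryonic stem (ES) cells kept in leukaemia inhibitory factor they are known as lineage genes that are largely silent, many of them with Polycomb marks. RYBP and YAF2 are paralogs and subunits of variant Polycomb repressive complexes. *Yaf2* was deleted in all the cells used here, and *Rybp* only in the treated group.

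Nuclear RNA was sequenced from 6 libraries of mouse *Rybp* fl/fl;*Yaf2*-/- ES cells grown on gelatin in serum with leukaemia inhibitory factor. Both groups carried the *Yaf2* deletion, which came from an isolated colony after genome editing, the floxed *Rybp* alleles and a tamoxifen-inducible Cre recombinase. The untreated group (UNT) had 3 biological replicates, and the 3 replicates of the other group (OHT) had received 800 nM 4-hydroxytamoxifen for 96 hr to delete *Rybp*. OHT-treated cells without the floxed alleles were not analysed here. The value used is the base mean, the authors' mean of normalized read counts over all 6 libraries, which joins UNT and OHT. It gives no level for either group alone, so no change on loss of RYBP is described for any gene, and there is no spread between replicates.

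The depth behind the base means could be read from the lowest of them. A transcript with 1 read in 1 library has a base mean of 1 divided by 6 times the size factor of that library, the number that scales its depth. All 1202 entries with a base mean above 0 and under 1 were whole-number combinations of 6 such steps, each in exactly 1 way. The steps gave size factors of 0.664 to 1.48, which do not say which library was UNT or OHT. The summed base means times these factors give an estimate of 1.55e+07 to 3.46e+07 reads on the entries per library. This estimate takes the normalized total to be the same in every library. Reads were sequenced in pairs, most nonzero counts in these entries were even (70.6%), and 2 reads were therefore taken as 1 fragment. For regulators with a base mean under 2, an odd read of a library was counted as a further fragment. For the others, estimated reads were divided by 2, which understates fragments where only 1 read of a pair was counted. The 95% intervals below are exact Poisson intervals on fragments and cover counting error only. They were expressed as base means through each gene's own base mean per fragment. With few reads, this scale depends on which libraries held them. *Gsc* and *Msgn1*, with 1 fragment each, thus have upper limits of 2.18 and 0.628.

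The cells carried the transcripts of ES cells. All 10 genes of a pluripotency list had base means of 1560 or more, with *Pou5f1*, the gene of OCT4, at 3039 and *Nanog* at 2930. *Yaf2*, the deleted paralog of *Rybp*, had a base mean of 3.24 at percentile 11.7 of all entries above 0. *Rybp* had 13983 over both groups together, which does not check the OHT label.

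Of the 10 regulators, 5 had base means between 14.1 and 79.9, and the other 5 had base means under 2. Over all entries, 15.5% had a base mean under 2, the entries at 0 (6.95%) included, and 24.2% had one under 10. The median over the regulators was 7.92, against 307 over all entries above 0. *Eomes* alone held 48.2% of the regulators' summed base mean. In RNA from a whole culture, few cells with much of a transcript and many cells with little of it cannot be told apart.

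Levels of different genes were compared per kb of transcript span, from first to last base with introns. The authors' methods do not state whether reads were counted over exons or over the whole gene. They do say that reads were realigned to recover intronic sequence and that genes were filtered on gene body mappability. Span was therefore the main length, and values per kb of exons are given where they change a comparison. If intronic reads were counted, values per exonic kb favour genes with long introns. All 10 regulators span less than the median entry, with a median of 3695 bp against 19174 bp. Per kb, the median regulator lay at percentile 26.2 of all entries above 0, and the highest, *Eomes*, at percentile 46.5, so that none reached the median level. Per exonic kb the median regulator lay at percentile 15.3 and *Eomes* at percentile 32.9. The median pluripotency gene lay at percentile 97.9, with a level per kb of span 221 times that of the median regulator.

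**Figure D1:**
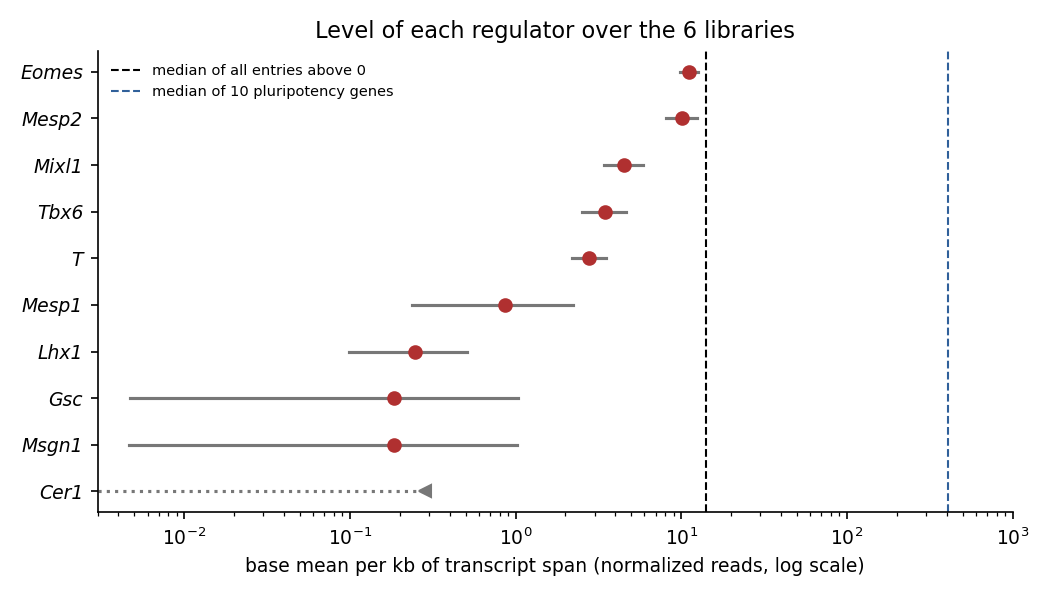
Base mean per kb of transcript span (log scale) of the 10 regulators over the 6 libraries; points are levels, grey lines are 95% counting intervals, and the triangle is the upper limit for *Cer1*, which had no reads. Black and blue dashed lines mark the medians of all entries above 0 (14.0) and of the pluripotency list (405); every regulator lies left of both.

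*Eomes* encodes a T-box factor needed for the exit of cells from the epiblast and for definitive endoderm. The transcript counted has 6 exons and occupies chr9:118478212-118485366 (mm10, plus strand). Its base mean was 79.9 (interval 70.3 to 90.5), about 41.7 fragments per library. Per kb it had 11.2, and *Pou5f1* had 57.2 times as much.

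*T* encodes Brachyury, the T-box factor of the nascent mesoderm and notochord. Its transcript has 8 exons at chr17:8434423-8442496 (plus strand). The base mean of *T* was 22.5 (interval 17.6 to 28.4), which is about 70.4 fragments in all or 11.7 per library. Per kb of span *Eomes* had 4.01 times the level of *T*, and per exonic kb it had 2.53 times (27.9 against 11.0). Their counting intervals did not overlap on either scale. *Tbx6*, a T-box factor of presomitic mesoderm, has 8 exons at chr7:126781483-126785560 (plus strand). Its base mean was 14.1 (interval 10.2 to 18.9). Per kb *Tbx6* had 3.45 and *T* 2.79, and the intervals of this pair overlapped.

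Of the 14 other T-box genes in the list, 11 had a lower level per kb of span than *T*, down to 0.124 for *Tbx5*, which acts in heart and forelimb, and 9 had a lower level per exonic kb. *Mga* and *Tbx3* were above *Eomes* on both scales. *Mga*, whose product joins a variant Polycomb complex, had 189 per kb and *Tbx3*, part of the pluripotency network, had 153 per kb. Per exonic kb, and by base mean without length, *Tbx20* and *Tbx15* were above *Eomes* as well. The median of the 17 genes was 1.44 per kb of span.

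**Figure D2:**
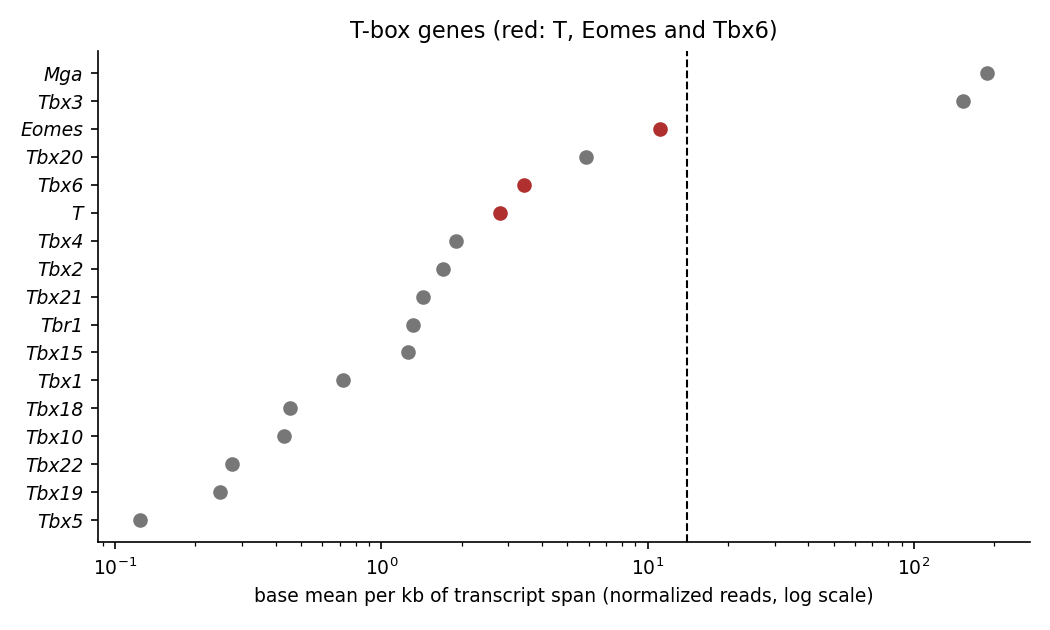
Base mean per kb of transcript span (log scale) of 17 T-box genes over the 6 libraries, with *T*, *Eomes* and *Tbx6* in red. The dashed line marks the median of all entries above 0; *Mga* and *Tbx3* lie right of it and the other genes left of it.

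Among the homeobox factors, *Mixl1* had about 113 reads in all, and *Lhx1* and *Gsc* had 13 and 2. *Mixl1*, a paired-type factor of the streak that acts in endoderm formation, has 2 exons at chr1:180693043-180697034 (minus strand). It had a base mean of 18.1 (interval 13.7 to 23.5), or 4.53 per kb. *Gsc* encodes Goosecoid, a factor of the gastrula organizer, with 3 exons at chr12:104471209-104473330 (minus strand). Its base mean of 0.392 (interval 0.00993 to 2.18) was 2 reads, both in the library of size factor 0.850, and the other 5 libraries had 0. *Lhx1*, a LIM-homeobox factor of the anterior streak and head organizer, has 5 exons at chr11:84518284-84525535 (minus strand). Its base mean of 1.78 (interval 0.716 to 3.67) came from 4, 6 and 3 reads in the libraries of size factor 1.48, 1.35 and 0.850, and the other 3 libraries had 0 reads. Per kb *Lhx1* had 0.246 and *Gsc* 0.185, and their intervals overlapped.

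The basic helix-loop-helix factors ranged from 10.1 per kb for *Mesp2* to 0.184 per kb for *Msgn1*. *Mesp2*, which sets the boundaries of somites, has 2 exons at chr7:79810727-79813439 (plus strand). Its base mean was 27.5 (interval 22.0 to 34.0), and per kb of span its interval overlapped that of *Eomes*. Per exonic kb it did not, at 14.1 against 27.9. *Mesp1*, the factor of the earliest cardiac mesoderm, is its neighbour at chr7:79792241-79793788 (minus strand, 2 exons), with a gap of 16938 bp between the transcripts. The base mean of *Mesp1* was 1.35 (interval 0.367 to 3.44). Its reads were 4 in the library of size factor 1.48, 2 in that of 0.850 and 2 in that of 0.664, and 3 libraries had 0. Per kb *Mesp2* had 11.7 times the level of *Mesp1*, and their intervals did not overlap. *Msgn1*, which acts with *Tbx6* in presomitic mesoderm, is a gene of 1 exon at chr12:11208360-11208972 (minus strand). Its base mean of 0.113 (interval 0.00285 to 0.628) was 1 read, in the library of size factor 1.48.

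The Mesp pair shares part of its coding sequence, which bears on how reads could be assigned. The longest identical stretch of the transcripts is 42 bases in exon 1 of both genes, inside the coding sequence, at chr7:79793148-79793189 on the minus strand for *Mesp1* and chr7:79811276-79811317 on the plus strand for *Mesp2* (GRCm38). It is shown because it is long enough to hold a whole read of 40 bases. Reads were paired, and the mate of such a read can lie outside the stretch, which was not examined here.
Mesp1 and Mesp2: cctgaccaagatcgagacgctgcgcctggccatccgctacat
Only 3 of the 1236 stretches of 40 bases in the *Mesp1* transcript occur in *Mesp2*. In *Mesp2*, 14 of 1905 stretches occur in another gene, *Mesp1* or *Gm10032*. The transcripts of *T*, *Mixl1*, *Gsc*, *Tbx6*, *Msgn1* and *Lhx1* share no stretch of that length with any other gene among 141767 annotated transcripts. *Eomes* shares 33 of 2830 such stretches, with 178 other genes, and *Cer1* 42 of 1700, with 902. Introns were not searched, and how the authors' script treated such reads is not given in the sources used here.

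*Cer1* encodes Cerberus-like, a secreted antagonist of Nodal and BMP made by the anterior visceral endoderm and definitive endoderm. Its 2 exons lie at chr4:82881751-82885148 (minus strand). No read was counted on *Cer1* in any of the 6 libraries, which allows up to 3 fragments in all or a base mean of up to 0.959. This limit is the floor that a count of 0 allows, a bound on 1 side, unlike the 2-sided intervals of the other genes. It is scaled by the summed size factors of all 6 libraries. The upper limit of *Msgn1* (0.628), scaled by 1 library, is therefore not comparable with it. Other Nodal antagonists were far from this floor: *Lefty1* had a base mean of 2522 and *Lefty2* one of 2557.

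**Figure D3:**
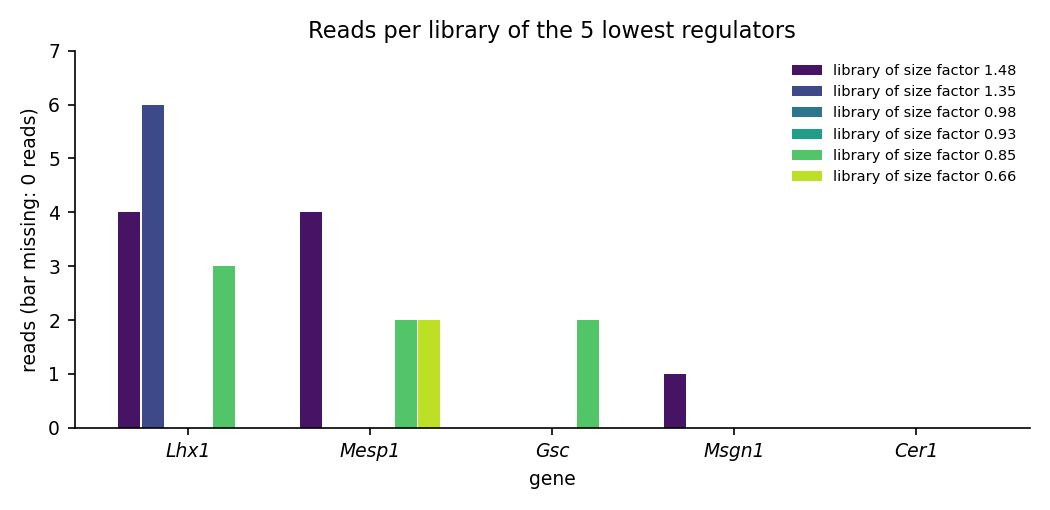
Whole reads per library (y axis) of the 5 regulators with a base mean under 2, split from their base means; colours are the 6 libraries by size factor and carry no group label. *Lhx1* and *Mesp1* each had reads in 3 libraries, *Gsc* and *Msgn1* in 1, and *Cer1* in none.

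In order of level per kb, the regulators ran *Eomes*, *Mesp2*, *Mixl1*, *Tbx6*, *T*, *Mesp1*, *Lhx1*, *Gsc* and *Msgn1*, with *Cer1* at 0. Among neighbours in this order, with intervals scaled as described above, only the step from *Mesp2* to *Mixl1*, of 2.23 times, was larger than the counting intervals. The step from *T* to *Mesp1* was 3.21 times, with intervals that overlapped only between 2.18 and 2.22. So narrow an overlap depends on how the interval of *Mesp1* was scaled, and whether this step exceeds counting error is not settled. Per exonic kb *T* came directly after *Mesp2*, above *Tbx6* (8.14) and *Mixl1* (7.89). On that scale the steps larger than the counting intervals were those from *Eomes* to *Mesp2*, of 1.97 times, and from *Mixl1* to *Mesp1*, of 7.48 times.

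Signals that induce the streak were unevenly represented. Of 7 ligands in the list 6 had an entry, and *Nodal* was not analysed here. *Gdf3*, a Nodal-related ligand, had 360 per kb and *Bmp4* 51.1 per kb. *Wnt3*, the Wnt ligand needed to start the streak, spans far more intron than *T*: it had 1.29 times the level of *T* per kb of span (3.61) and 4.67 times per exonic kb (51.4). *Fgf8*, which drives cell migration through the streak, had 0.991 per kb and was the lowest of the ligands. The receiving side was higher: all 10 receptors and effectors had base means of 267 or more, with a median level of 52.2 per kb of span, and *Tdgf1*, the Nodal co-receptor Cripto, had 195 times the level of *Eomes* per kb. *Foxh1*, the Nodal-responsive forkhead factor, had 155 per kb.

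The antagonists covered a wide range. *Lefty1* (746 per kb), *Lefty2* (426 per kb) and the Wnt antagonist *Sfrp1* (80.4 per kb) were above the median of all entries. *Chrd* and *Nog*, which bind BMP, had 10.4 and 6.64 per kb, and *Dkk1*, a Wnt antagonist of the anterior streak, had 4.19 per kb.

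Lists for cells that form after the streak had medians above the regulators' 1.83 per kb of span and 4.47 per exonic kb. For 6 definitive endoderm genes, *Gsc* among them, the median was 2.92 per kb, with *Foxa2* at 1.81, *Sox17* at 4.03 and *Cxcr4* at 29.1. The 8 mesoderm genes had a median of 8.05 per kb, from *Kdr* at 1.04 to *Tcf15* at 116. Lists for other cell types held no gene at 0: medians per kb were 3.34 for 5 primitive endoderm genes, 9.47 for 4 neural ectoderm genes, 6.79 for 4 trophoblast genes and 11.8 for 4 fibroblast genes, whose base means ran from 1.35 for *Postn* to 369 for *Col1a1*. Per exonic kb these medians were 41.0, 46.7, 23.7 and 39.3, in the same order, so that the primitive endoderm genes were 1.83 times the regulators by span and 9.17 times by exons. The part of such cells in the levels of the regulators was not tested. Of 5 formative and primed genes, *Dnmt3b* had 77.4 per kb of span. The epiblast gene *Fgf5* was below *T* per kb of span, at 1.14, and above *T* and *Eomes* per exonic kb, at 40.0. By base mean without length *Fgf5* had 24.0, close to *T* (22.5) and below *Eomes* (79.9). Its place above *Eomes* therefore rests on the exonic length of the transcript used.

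**Figure D4:**
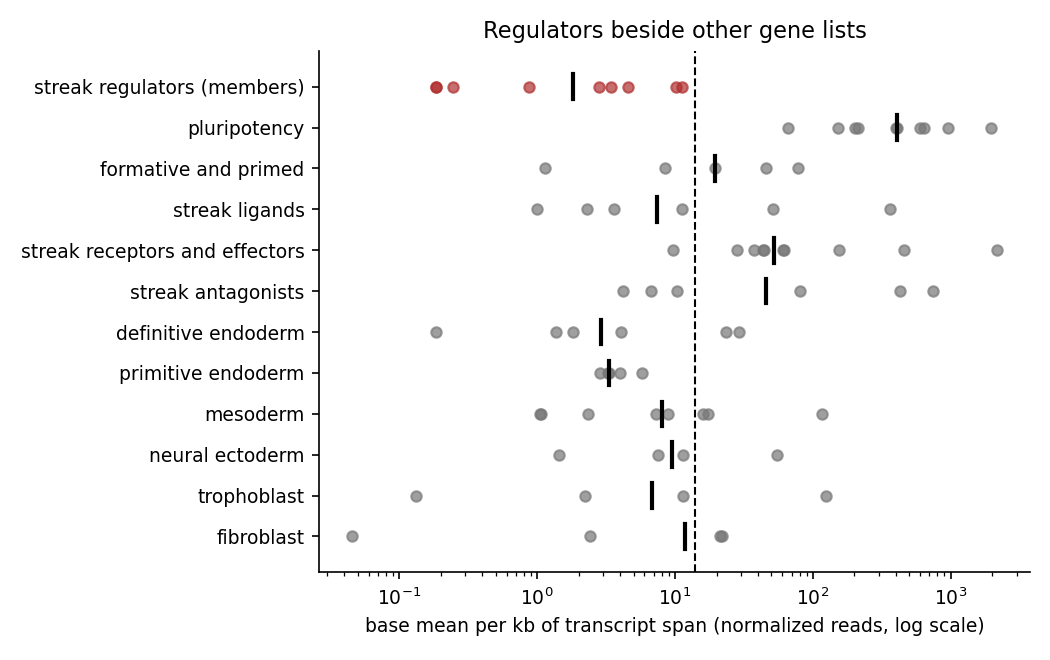
Base mean per kb of transcript span (log scale) for the regulators (red) and for 11 other gene lists (grey), 1 point per gene above 0; black bars are list medians and the dashed line is the median of all entries above 0. The regulators' median is 1.83 per kb with *Cer1* at 0 included, and that of the pluripotency genes is 405 per kb; the T-box family, with a median of 1.44, is not drawn here.

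Several regulators lie close to genes with far more reads. *Tbx6* ends 305 bp from the end of *Ppp4c*, a phosphatase gene on the opposite strand with 240 per kb, and starts 968 bp downstream of *Ypel3*, on its own strand, with 41.9 per kb. *Mixl1* ends 2355 bp from *Lin9*, on the opposite strand, with 28.2 per kb. *Lhx1* ends 4761 bp from *Aatf*, on its own strand, with 30.1 per kb. It starts 148 bp from *Lhx1os*, on the opposite strand, which had few reads too, with a base mean of 1.49. None of the 10 transcripts counted overlaps another annotated gene, and *Gm33460*, which runs antisense to the end of the longer *Eomes* gene model, lies 192 bp beyond the *Eomes* transcript. The libraries were directional, but whether strand was used in counting is not given in the sources used here, and the part of neighbouring genes in these levels was not tested.

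The regulators also differ in their promoters, taken as the 250 bases before and 50 after the RefSeq start (GRCm38.p6). A promoter was found for 9 of the 10, all but *Mixl1*. CpG dinucleotides, which are dense at the promoters that Polycomb complexes bind, numbered 31 at *Lhx1*, 25 at *Gsc* and 17 at *T*, against a median of 7 over 32851 promoters. *Eomes* and *Mesp2* had 10 each, *Tbx6* 7, *Cer1* 6, and *Mesp1* and *Msgn1* 4 each. Low levels were found at both ends of this range: *Lhx1* and *Gsc*, with the most CpG, had 13 and 2 reads in all, and *Mesp1* and *Msgn1*, with the fewest, had 8 and 1. *Eomes* and *Mesp2*, with the highest levels per kb, are in the middle. Lower levels were found between the ends too: *Cer1*, with 6 CpG, had 0 reads, *Tbx6*, with 7, had 3.45 per kb, and *T*, with 17, had 2.79 per kb. The upstream bases of *Eomes*, *Mesp2* and *Lhx1* are given to show the contrast in CpG count, with each CG in capitals.
Eomes, chr9:118477939-118478188, plus strand: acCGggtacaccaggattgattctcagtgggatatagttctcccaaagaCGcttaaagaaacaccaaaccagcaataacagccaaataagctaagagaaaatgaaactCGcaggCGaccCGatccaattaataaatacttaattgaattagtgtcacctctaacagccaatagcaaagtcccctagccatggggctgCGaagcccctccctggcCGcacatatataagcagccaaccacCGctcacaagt
Mesp2, chr7:79810477-79810726, plus strand: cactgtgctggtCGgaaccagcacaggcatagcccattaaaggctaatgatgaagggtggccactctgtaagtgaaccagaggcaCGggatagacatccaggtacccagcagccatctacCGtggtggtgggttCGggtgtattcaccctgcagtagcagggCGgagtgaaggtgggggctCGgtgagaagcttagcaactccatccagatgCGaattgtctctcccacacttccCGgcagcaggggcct
Lhx1, chr11:84525535-84525784, minus strand: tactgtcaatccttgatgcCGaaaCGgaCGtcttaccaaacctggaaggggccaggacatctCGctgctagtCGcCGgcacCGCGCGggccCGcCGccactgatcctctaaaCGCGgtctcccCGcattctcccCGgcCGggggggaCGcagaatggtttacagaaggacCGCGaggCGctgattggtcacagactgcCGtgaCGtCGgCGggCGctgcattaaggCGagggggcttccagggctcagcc
The 250 bases hold 8 CG at *Eomes*, 8 at *Mesp2* and 26 at *Lhx1*.

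**Figure D5:**
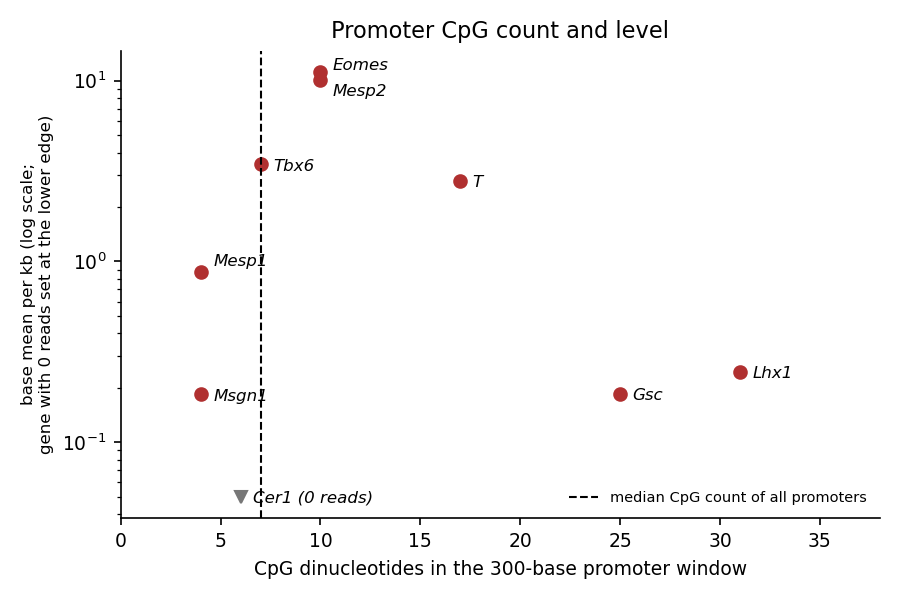
CpG dinucleotides in the 300-base promoter window (x axis) against base mean per kb (y axis, log scale) for the 9 regulators with a promoter; *Cer1*, with 0 reads, is drawn as a triangle at the lower edge. *Gsc* and *Lhx1* combine 25 and 31 CpG with levels under 0.25 per kb, and *Eomes* and *Mesp2* combine 10 CpG with levels of 10.1 per kb or more, while *Mesp1*, *Msgn1* and *Cer1* have 6 CpG or fewer and levels of at most 0.869 per kb.

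A search of both strands for exact matches to 5 short motifs found few. Related forms of each motif were not counted, so a gene without a match may still hold one. The TATA box (TATAAA) was found in the windows of *Gsc* and *Tbx6*, 2 of 9, against 13.6% of all promoters, and at *Tbx6* it starts 43 bases before the gene. *Eomes* had no exact match, but the related form TATATAAG lies in its upstream bases printed above, shortly before the start. A TCF/LEF motif (CTTTGAT, in 3.73% of all promoters) was found at *Mesp1* and *Msgn1*. *T* had no exact match but holds the related form CTTTGAA on the opposite strand of its upstream bases. That form is not particular to *T*, since the upstream bases of *Mesp1* and *Msgn1* hold it as well. The share of all promoters with a related form was not counted for any motif. The T-box half-site (TCACACCT, in 1.28%) was found at *Mesp1* and the FOXH1 motif (AATCCACA, in 0.855%) at *Mesp2*, both after the start. The E-box CAGATG (in 17.2%) was found upstream at *Gsc* and *Mesp2*, and after the start at *Cer1*. In the GENCODE annotation some genes start further upstream: of the 250 bases before the RefSeq start, 198 lie in exons of *Mesp1*, 94 in exons of *Gsc*, 24 in those of *Msgn1* and 1 in those of *Lhx1*. These matches describe the letters of the windows, and binding was not measured here.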

How the data were processed

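Per the labels and methods, the authors filtered out rRNA reads and mapped what was left on mm10 with STAR. Reads that STAR did not map were aligned with bowtie2, to recover intronic sequence. The authors then counted over RefSeq genes from which redundant entries had been removed, and ran DESeq2. Tool versions are not given in the sources used here. The deposited base mean is a signal: read counts divided by each library's size factor, averaged by the authors across UNT and OHT. The remaining deposited columns hold the authors' own comparison of OHT with UNT (fold change, standard error, statistic and p-values) and were not used. The count test in the design was therefore not run, and no comparison between groups was made.

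Entries were named through RefSeq (GRCm38.p6) and GENCODE M21, which share the mm10 coordinates. A symbol was found for 20560 of 20633 entries and a transcript length for 20261. Percentiles are among 19198 entries above 0 (18871 with a length). Size factors were solved from base means under 1 with a tolerance of 2e-09, and members with a base mean up to 2 were split into reads per library. These steps were tested on simulated data. Estimated reads are the base mean times the summed size factors (6.25). The members, gene lists and motifs were chosen with earlier results of these data known. Named genes are the members, listed genes, *Rybp*, *Yaf2* and neighbouring or overlapping genes; *Gm10032* was named after its values were seen. Python 3.11.15, numpy 2.4.6, pandas 2.3.3, scipy 1.17.1 and matplotlib 3.10.9 were used.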

Additional observations from a re-analysis of the deposited data

How the results depend on the processing

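No paired analysis was possible because the base mean joins all 6 libraries; tests on counts with edgeR or DESeq2, with or without the replicate block or any single replicate, were therefore not run. The median percentile of the regulators' level per kb was 26.2, was 15.3 with exonic length, under which single regulators fell by 18.5 percentile points at most, and was 31.9 without *Lhx1* and *Cer1*. Taking percentiles over 1 entry per gene moved none of the regulators by more than 0.510 percentile points, and the whole RefSeq gene length moved none by more than 2.45. Including entries at 0 raised percentiles of base mean by 3.48 to 6.95 points, and with a minimum base mean of 10, those of the 5 regulators that remained fell by 15.0 at the least and fell by 18.1 at the most. Setting all size factors to 1 scales the estimated reads of every regulator alike and could not take any out of its interval. Counting 1 read as 1 fragment, an alternative chosen after seeing the data, raised the fragments of the 5 higher regulators to between 87.9 for *Tbx6* and 500.0 for *Eomes*.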

Other observations

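The lowest base means carry information on counting that the authors' summary does not state. Among 1913 nonzero counts in the 1202 entries under a base mean of 1, 1213 were exactly 2 and 485 exactly 1, so that even counts made up 70.6%. The largest size factor was 2.23 times the smallest.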
